A study of Tachycineta bicolor with 20 samples.

Results

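Ovaries of adult female tree swallows (Tachycineta bicolor) whose nest boxes had been taken away for a time were compared between the peak of the resulting competition (Day 0, 6 birds) and 2 days later (Day 2, 4 birds). These 10 libraries were chosen by their labels, as the experimental birds of a series of 20. The other 10 are control birds from the same dates that were left alone, 5 on each day, and serve here as a reference only. All birds were wild, each gave 1 ovary and 1 library of mRNA, and no bird was sampled on both days, so a difference between the days is one between birds. How strongly each female took part in the competition is not recorded in the labels. The 10 libraries held 5818117 to 15718893 counts.

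Tree swallows nest in cavities that they cannot dig themselves, and females fight over them. The avian ovary holds follicles at several stages, in which granulosa and theca cells make progesterone, testosterone and oestradiol, and steroids of the follicle wall also reach the yolk. The comparison of the days asks what is seen in the ovary once the challenge at its peak has passed. The counts are listed by transcript ID and the files pair no ID with a gene name. The IDs number the transcripts and hold no gene symbol. A search of them for 26 marker symbols of granulosa, theca, oocyte, oviduct, red blood cells and leukocytes therefore found 0 by construction. The tissue label could thus not be checked against markers, and the transcripts below carry no known function. In whole ovaries, fewer cells of a type and less RNA per cell cannot be told apart.

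No transcript passed between Day 2 and Day 0. Of 13276 transcripts tested with edgeR's quasi-likelihood test, 0 (0%) had a Benjamini-Hochberg adjusted p under 0.05, and the smallest adjusted p was 0.355. At an unadjusted p under 0.05 there were 603 transcripts, or 4.54%, where evenly spread p-values would give 5%. Of these, 326 (2.46%) had the higher mean on Day 2 and 277 (2.09%) the lower. With all 20 birds in the fit this turned to 320 higher and 381 lower. The median size of the log2 difference was 0.17. DESeq2 called 11 transcripts (7 higher and 4 lower on Day 2). Run with a quality weight for each bird, limma-voom called 0, with a smallest adjusted p of 0.0527.

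The transcript with the smallest p was tree_swallow009929t1_sg0.0, which had less RNA on Day 2. In the 6 birds of Day 0 it stood at 231, 142, 176, 74.8, 153 and 200 CPM (counts scaled to an equal total per library), in the order of bird number. In the 4 birds of Day 2 it stood at 35.5, 64.8, 30.4 and 40.8 CPM. Every Day 2 bird lay below every Day 0 bird, but bird 4 of Day 0 came close to bird 2 of Day 2. The means were 163 CPM ± 53.7 (SD, n = 6) and 42.9 CPM ± 15.2 (SD, n = 4). The log2 fold change was -1.93 (SE 0.307, 95% interval -2.59 to -1.26, edgeR adjusted p = 0.355). Without bird 4 of Day 0 it passed in edgeR, at an adjusted p of 0.0354 and a log2 fold change of -2.07. That bird had the lowest level of its day in this transcript, so leaving it out widens the gap by construction. This pass is therefore no separate result, and with any other bird left out the transcript did not pass. With all 10 birds it passed in DESeq2, at an adjusted p of 1.55e-06. Over 19 other settings and left-out birds the adjusted p ran from 1.55e-06 to 0.984, and the log2 fold change stayed between -2.19 and -1.61.

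The other transcript of small p that was lower on Day 2 was tree_swallow002379t1_sg0.0. Its Day 0 birds stood at 19.8, 32.8, 25.2, 28.3, 29.8 and 25.1 CPM, and its Day 2 birds at 12.5, 9.41, 18.7 and 7.71 CPM. The days did not overlap, although bird 3 of Day 2 lay just under bird 1 of Day 0. The mean was 26.8 CPM ± 4.51 (SD, n = 6) on Day 0 and 12.1 CPM ± 4.84 (SD, n = 4) on Day 2. This is a log2 difference of -1.14 with an SE of 0.249 (edgeR adjusted p = 0.945). DESeq2 called it (adjusted p = 0.0202).

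In the other direction, tree_swallow005002t1_sg0.0 was scarce on Day 0 and several times more abundant on Day 2. Its Day 0 birds stood at 0.566, 2.03, 2.98, 2.07, 1.46 and 1.13 CPM, which rest on 4 to 23 reads. Its Day 2 birds stood at 6.31, 6.88, 9.0 and 8.47 CPM, from 57 to 145 reads. The lowest Day 2 bird was 2.11 times the highest Day 0 bird, so the days were well apart. The means were 1.71 CPM ± 0.844 (SD, n = 6) and 7.66 CPM ± 1.28 (SD, n = 4), a log2 fold change of 2.17 (SE 0.364, 95% interval 1.39 to 2.96). It did not pass in edgeR (adjusted p = 0.355) or limma-voom (0.0527) but did in DESeq2 (1.45e-05).

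The second such transcript, tree_swallow001694t1_sg0.0, stood at 29.7, 35.3, 41.1, 37.6, 35.0 and 28.5 CPM on Day 0. On Day 2 it stood at 89.9, 53.7, 104 and 50.1 CPM. Birds 1 and 3 of Day 2 were far above all others, and birds 2 and 4 only a little above the highest Day 0 bird. The mean was 34.5 CPM ± 4.76 (SD, n = 6) on Day 0 and 74.3 CPM ± 26.5 (SD, n = 4) on Day 2. This is a log2 difference of 1.11 with an SE of 0.212 (edgeR adjusted p = 0.822). DESeq2 called it (adjusted p = 0.00760). With the spread estimated from all 20 birds, its edgeR adjusted p was 0.0929. These 4 transcripts were picked by their p in these counts, so their separation adds nothing to the test.

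**Figure D1:**
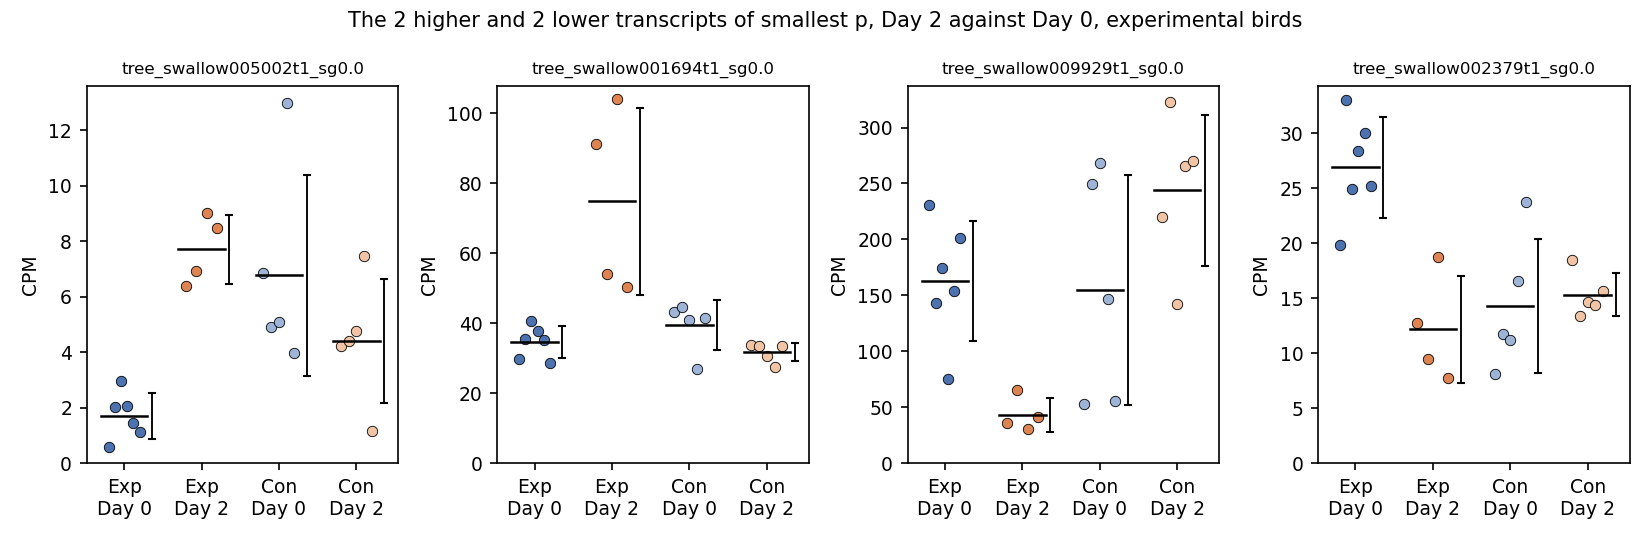
Level in CPM (linear axes from 0, scaled over all 20 birds) of the 2 higher and 2 lower transcripts of smallest p on Day 2 against Day 0, in experimental (Exp) and control (Con) ovaries of Day 0 and Day 2. Points are birds, horizontal lines are means and bars are the SD; the Exp days do not overlap in any panel, and for tree_swallow005002t1_sg0.0 the Exp Day 0 birds are below all but 1 control bird.

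The most abundant transcripts, picked without regard to day, had similar means on both days. The first, tree_swallow002145t1_sg0.0, reached a mean of 13775 CPM ± 1454 (SD, n = 6) on Day 0 and 12431 CPM ± 3226 (SD, n = 4) on Day 2. Bird 3 of Day 2 was lowest of the 10, at 8371 CPM, and bird 3 of Day 0 highest, at 16215 CPM. Its log2 fold change was -0.15, with a 95% interval of -0.56 to 0.26 (edgeR adjusted p = 0.950). The next, tree_swallow000202t1_sg0.0, had means of 5535 CPM ± 961 (SD, n = 6) on Day 0 and 5679 CPM ± 1258 (SD, n = 4) on Day 2. Its log2 fold change was 0.04 (95% interval -0.37 to 0.44). The third, tree_swallow001487t3_sg0.1, is 1 of 2 transcripts of its ID stem and had means of 5368 CPM ± 598 (SD, n = 6) on Day 0 and 5147 CPM ± 705 (SD, n = 4) on Day 2. Its log2 fold change was -0.06 (95% interval -0.39 to 0.27). For each of these 3, the days overlapped and the interval left out a 2-fold change in either direction.

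**Figure D2:**
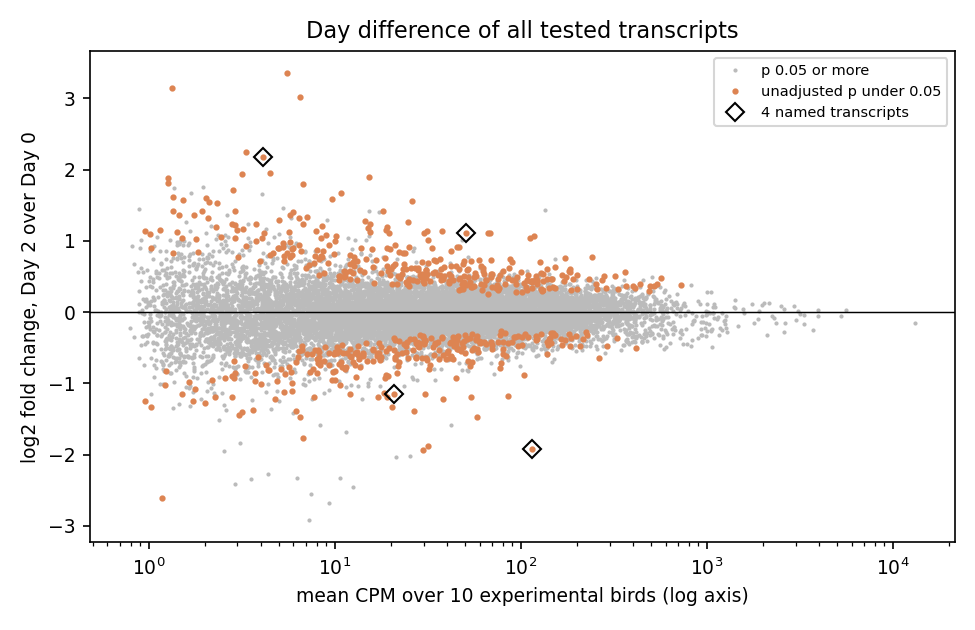
Log2 fold change of Day 2 over Day 0 against mean CPM (log axis) for 13276 transcripts in the 10 experimental birds. Orange points are the 603 transcripts of unadjusted p under 0.05, grey points the others, and diamonds the 4 named transcripts; large differences are found mostly among scarce transcripts.

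How precisely a day difference was estimated depended on abundance. The intervals below are not adjusted for the number of transcripts tested, so they do not give the size of change that the adjusted test could call. For 10199 transcripts (76.8%) the 95% interval stayed inside ±1 on the log2 scale, which leaves out a 2-fold change. Among 2636 transcripts over 100 CPM this held for 93.8%, and among 7361 between 10 and 100 CPM for 87.3%. It held for 40.2% of the 3235 transcripts between 1 and 10 CPM and for 0% of the 44 under 1 CPM. The median SE was 0.178 in the most abundant class and 0.373 between 1 and 10 CPM. The share at an unadjusted p under 0.05 differed little between classes, at 3.79% over 100 CPM, 4.73% between 10 and 100 CPM and 4.73% between 1 and 10 CPM. Over 100 CPM, 65 of these had the higher mean on Day 2 and 35 the lower. Between 10 and 100 CPM, 173 were higher and 175 lower, and between 1 and 10 CPM 87 were higher and 66 lower. These directions were not tested by class.

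Differences in mean of over 2-fold were seen in 201 transcripts, 109 higher and 92 lower on Day 2. Both sets were picked by the day difference in these birds, so small p-values and days without overlap are more frequent in them by construction. Over all 13276 transcripts the shares were 4.54% at an unadjusted p under 0.05 and, without overlap, 0.482% higher and 0.603% lower on Day 2. Of the 109, 73 had an unadjusted p under 0.05 and in 13 the days did not overlap. Of the 92, 37 had an unadjusted p under 0.05 and in 9 the days did not overlap. Bird 5 of Day 0 had the highest level in 32 of the 92, more than any other bird of that day. The 12 transcripts that were over 4-fold lower on Day 2 were highest in that same bird in 11 cases, and 1 of the 12 had an unadjusted p under 0.05. In the 109, the highest level was in bird 4 of Day 2 in 37 cases, bird 2 in 36, bird 3 in 23 and bird 1 in 13. The 5 transcripts that were over 4-fold higher on Day 2 all had an unadjusted p under 0.05, and in 2 of them the days did not overlap.

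Every Day 2 bird lay above every Day 0 bird in 64 transcripts (0.482%), and below in 80 (0.603%). Over the 210 arrangements of the birds, no overlap in either direction has an exact two-sided permutation p of 0.00952. Both shares are thus near those that arrangements made without regard to day would give. In 116 of these 144 the unadjusted p was under 0.05, which days without overlap bring about by themselves. A gap of at least 2-fold between the nearest birds of both days was left in 2 transcripts, both higher on Day 2, and in 0 of the 80 lower ones. One of the 2 is tree_swallow005002t1_sg0.0, described above, and the other, tree_swallow011477t2_sg1.1, named after its values were seen, averaged 1.33 CPM over the 10 birds. Of the 2636 transcripts over 100 CPM, 15 without overlap were higher on Day 2 and 5 lower. Of the 7361 between 10 and 100 CPM, 30 were higher and 49 lower. Whether direction differed between these classes was not tested.

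The ovaries did not separate by day as a whole. The mean distance between 2 birds, as the root mean square difference of log2 CPM over all tested transcripts, was 0.699 between days (24 pairs) and 0.716 within days (21 pairs). The difference of -0.0179 did not pass an exact permutation test over the 210 arrangements of the birds (two-sided p = 0.657, adjusted over 8 measures 0.867). The closest pair of all spanned the days, bird 5 of Day 0 and bird 2 of Day 2, at a distance of 0.539. The farthest, birds 3 and 6 of Day 0, were at 0.889. For 5 of the 10 birds the nearest other bird was of the same day, and those 5 were all of Day 0. Each of the 4 Day 2 birds was closest to a Day 0 bird. With 6 birds of Day 0 and 4 of Day 2, every bird has more Day 0 birds to be nearest to. The nearest birds were not tested.

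Of the variance of the 500 most variable transcripts, 44.0% lay on component 1, along which both days were spread. Bird 5 of Day 0 had a score of 37.3 and bird 2 of Day 2 one of 30.9, while bird 2 of Day 0 had -24.4 and bird 1 of Day 2 had -23.8. Its mean was -1.32 on Day 0 and 1.98 on Day 2, with an exact permutation p of 0.80 (adjusted 0.867). Component 2 held 13.7% and averaged 4.33 on Day 0 and -6.49 on Day 2 (exact permutation p = 0.181, adjusted 0.838). Without bird 3 of Day 2, the only bird of that day with a positive score, its unadjusted exact permutation p was 0.0238. That bird was singled out by its score on this same component, and without it the days do not overlap there. This p is therefore no separate result. With any other bird left out, the unadjusted exact permutation p of component 2 was 0.111 to 0.548. Component 3 held 7.87% (exact permutation p = 0.400, adjusted 0.838).

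Among those 500, 101 transcripts followed component 1 with a Pearson's r above 0.8 over the 10 birds, a set chosen after its values were seen. Their geometric mean on Day 0 was 5.08, 1.03, 1.84, 1.30, 25.0 and 1.58 CPM by bird number. On Day 2 it was 1.07, 19.0, 2.00 and 5.08 CPM. One ovary of each day was far above the rest, and the highest and lowest birds differed 24.2-fold. The same 2 birds scored highest on component 1, by which the set was picked, so their rank is no separate result. The set took 0.846% of the counts in bird 5 of Day 0 and 0.631% in bird 2 of Day 2, and 0.0186% to 0.140% in the other 8 birds. Between the days its median log2 fold change was 0.17, against -0.03 over all tested transcripts, and 0 of the 101 had an unadjusted p under 0.05. Component 1 did not separate the days, so a set picked by it can hold few small p-values.

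**Figure D3:**
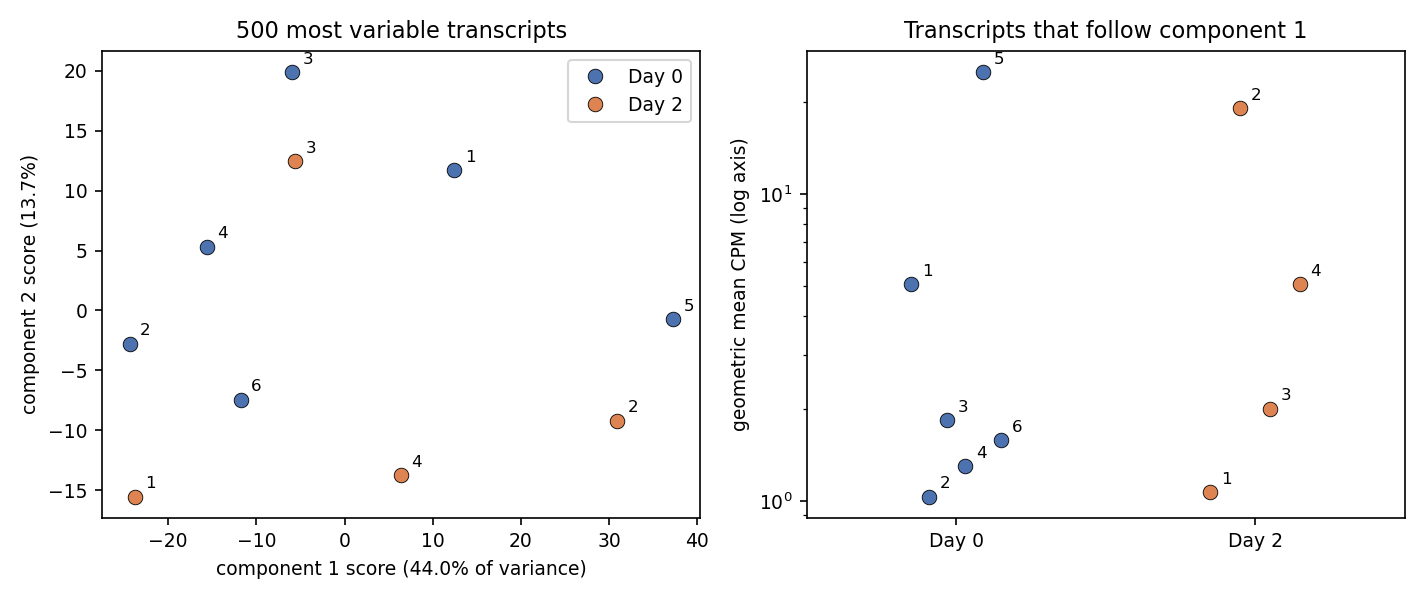
Left, scores of the 10 experimental birds on components 1 and 2 of the 500 most variable transcripts (numbers are bird numbers within a day). Right, geometric mean CPM (log axis) of the 101 transcripts that follow component 1. In each day 1 bird, bird 5 of Day 0 and bird 2 of Day 2, lies far above the others. These birds also score highest on component 1, by which the transcripts were picked.

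Other features of the libraries also overlapped between the days. Mean total counts were 8560733 ± 2531933 (SD, n = 6) for Day 0 and 10865253 ± 3356770 (SD, n = 4) for Day 2, with an exact permutation p of 0.267 (adjusted 0.838). At an equal depth of 5818117 counts, 14286 ± 113 (SD, n = 6) transcripts were detected on Day 0 and 14300 ± 123 (SD, n = 4) on Day 2 (exact permutation p = 0.867). The 10 most abundant transcripts of a bird held 5.18% ± 0.408 (SD, n = 6) of its counts on Day 0 and 4.89% ± 0.572 (SD, n = 4) on Day 2 (exact permutation p = 0.467).

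Spread between birds was nominally larger on Day 0. Of its measures only the distance between birds was tested, and it did not pass. The median coefficient of variation between birds (SD over mean CPM) was 25.3% on Day 0 and 19.6% on Day 2. It was larger on Day 2 in 35.3% of transcripts, and in 27.3% of those over 100 CPM. The coefficients of variation were not tested. An SD from 4 birds is on average somewhat smaller than one from 6, and how much of the difference this makes was not tested. The mean distance within a day was 0.730 on Day 0 (15 pairs) and 0.682 on Day 2 (6 pairs). The difference of -0.0476 gave an exact permutation p of 0.524 (adjusted 0.838).

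**Figure D4:**
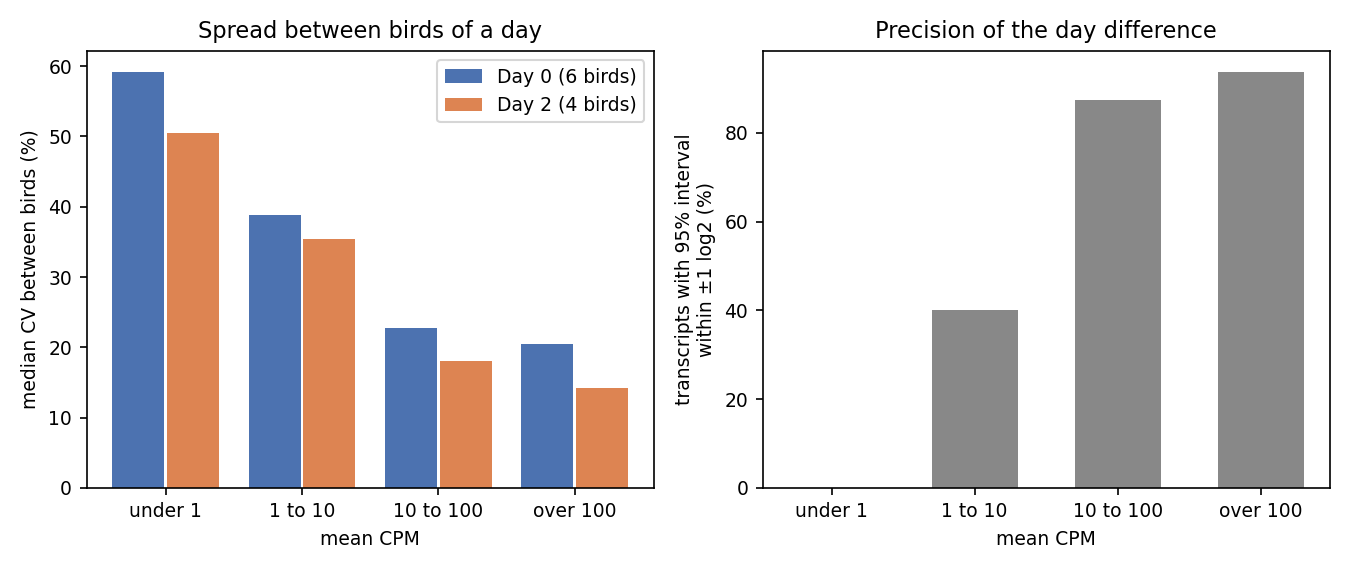
Left, median coefficient of variation between birds (percent) of Day 0 (6 birds) and Day 2 (4 birds) by class of mean CPM; it is larger on Day 0 in each class. Right, percent of transcripts in each class whose 95% interval of the log2 fold change lies within ±1, from 0% under 1 CPM to 93.8% over 100 CPM.

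The mix of transcripts within an ID stem was also compared. Of 1027 stems with 2 or more tested transcripts (2264 transcripts), 0 passed edgeR's test for differential usage with Simes p-values, with 4 stems at an unadjusted p under 0.05. This is far fewer than the 5% that evenly spread p-values would give. The 0 therefore does not show that the mix was the same on both days. A limma test of the ratio of each transcript to the others of its stem, added after the data were seen, also called 0, with 85 of 2264 transcripts at an unadjusted p under 0.05. The log2 fold changes of a stem's transcripts differed by a median of 0.12 from lowest to highest, and by over 1 in 12 stems (1.17%). Transcripts of a stem had fold changes of opposite sign in 272 stems (26.5%). The labels and file do not say how reads shared by such transcripts were divided, so these counts are uncertain.

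Control birds of the same dates, which were left alone, were compared between the days as well. No control was sampled on both days either, so this contrast also mixes a day difference with differences between birds. In their own edgeR fit, 0 of 13341 transcripts (0%) passed between Day 2 and Day 0, and 1821 (13.6%) had an unadjusted p under 0.05. The difference of both day contrasts, an interaction tested in edgeR over all 20 birds, passed in 0 of 13742 transcripts (0%). At an unadjusted p under 0.05 there were 1560 (11.4%). Evenly spread p-values would give 5%, and the experimental birds' own contrast gave 4.54%. Transcripts are not independent of each other, so a pattern shared by many can move such a share. Whether these shares differ was not tested. For the interaction, DESeq2 called 84 and limma-voom 0, and without control bird 1 of Day 2 edgeR called 2.

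For each of the 4 named transcripts the difference of the control means had the opposite sign, with edgeR adjusted p from 0.392 to 0.894 in the controls' own fit. Levels here are scaled over 20 birds. Control means of tree_swallow005002t1_sg0.0 were 6.77 CPM ± 3.63 (SD, n = 5) on Day 0 and 4.41 CPM ± 2.23 (SD, n = 5) on Day 2. The experimental birds had 1.71 and 7.72 CPM, so those of Day 0 stood lowest of the 4 groups. Its interaction was 2.80 on the log2 scale (SE 0.599, edgeR adjusted p = 0.174). For tree_swallow009929t1_sg0.0 the controls averaged 155 CPM ± 103 (SD, n = 5) on Day 0 and 244 CPM ± 67.5 (SD, n = 5) on Day 2, and experimental birds of Day 2, at 43.2 CPM, stood lowest. Its interaction was -2.56 (SE 0.574, edgeR adjusted p = 0.174).

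For tree_swallow001694t1_sg0.0 the controls averaged 39.5 CPM ± 7.14 (SD, n = 5) and 31.8 CPM ± 2.66 (SD, n = 5), scaled in the same way, with experimental birds of Day 2 the highest group. The interaction was 1.44 (SE 0.263, edgeR adjusted p = 0.174). For tree_swallow002379t1_sg0.0 the controls were level, with a Day 0 mean of 14.3 CPM ± 6.12 (SD, n = 5) and a Day 2 mean of 15.3 CPM ± 1.96 (SD, n = 5), and experimental birds of Day 0, at 26.9 CPM, stood highest. The interaction was -1.24 (SE 0.371, edgeR adjusted p = 0.262). None of the 4 differences between experimental and control birds passed in edgeR, and these transcripts were picked for a small p in one of the contrasts compared.

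Over 13174 transcripts in both fits, the log2 day differences of experimental and control birds, which share no bird, had a Pearson's r of -0.03 and a Spearman's rho of -0.07. These are correlations across transcripts, which are not independent replicates, and with 1 of the 20 birds left out r ran from -0.19 to 0.18. The sign was the same in 46.4% of all transcripts. Among the 595 with an unadjusted p under 0.05 in experimental birds, it was the same in 33.4%. The median control difference of those higher on Day 2 was -0.18 on the log2 scale, and of those lower on Day 2 0.06. With 1 bird left out the 33.4% ran from 26.1% to 48.0%, the highest without bird 3 of experimental Day 2. It was under the share over all transcripts in 20 of 20 cases. These 20 cases share most of their birds, so they are not separate tests, and the difference between both shares was not tested.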

How the data were processed

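Ovarian mRNA was sequenced with a stranded kit, per the labels' protocols. Per the submitters' processing notes, the tools were SAMtools, CASAVA, Bowtie2 2.4.2 and fastp 0.20.1. What each did, the reference and the counting program remain not given in the sources used here. Raw read counts were deposited for 14782 transcripts of 13412 ID stems, with 1 line that names no transcript (0 counts) left out.

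Only the 10 experimental birds entered the main test. Transcripts were kept with filterByExpr (minimum count 10, minimum total 15), which removed 1506 holding at most 0.0941% of a library's counts. After TMM scaling they were fitted with edgeR 4.0.16 in R 4.3.3 (robust quasi-likelihood, 2 group means) and adjusted by Benjamini-Hochberg over 13276 transcripts. The SE is the log2 fold change over the root of the F statistic. The common biological coefficient of variation was 0.312. Birds are numbered by sample order, which pairs none. Components used log2 CPM with a prior count of 2. Sample values were compared by exact two-sided permutation tests (scipy 1.17.1; smallest possible p 0.00952).

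Named transcripts were the 2 higher and 2 lower ones of smallest p and the 3 most abundant. The comparison, rule and lists were chosen with earlier results of these data known. Alternatives used RLE factors, other filters, DESeq2 1.42.0, limma 3.58.1, all 20 birds, thinned counts, stem sums and each bird left out. The limma-voom fit of the days gave each bird a quality weight. The tests of transcripts and of usage were also run on counts simulated from the fitted spread, each transcript drawn independently. Such counts lack patterns shared between transcripts, as on component 1. These runs therefore do not show how the tests behave in the real ovaries. The chi-square over degrees of freedom between birds of a day was 12.7 to 91.1, so no library was a duplicate of another of its day. Pairs across the days were not checked in this way.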

Additional observations from a re-analysis of the deposited data

Results flagged for a closer look

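Of 42 sets of values from 1 group of birds, 2 held a bird far from the others, where chance gives about 1 in 20. The 10 most abundant transcripts held 5.96% of the counts of experimental bird 3 of Day 0, against 4.75% to 5.16% in the other 5. In the Day 0 controls, tree_swallow001694t1_sg0.0 stood at 27.0 CPM in bird 4 and at 41.0 to 44.7 CPM in the other 4, scaled over 20 birds.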

How the results depend on the processing

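No paired analysis was possible because each bird was sampled once and the bird numbers in the labels are shared by no 2 birds. The count of 0 transcripts between the days was kept under RLE factors, both other filters, limma-voom, all 20 birds, an adjusted p under 0.10, no robust estimation, thinning and stem sums. DESeq2 called 11, and with 1 bird left out 0 to 1 were called. At unadjusted p, the 326 higher became 530 with limma-voom and 227 to 408 with 1 bird left out, and the 277 lower became 373 with limma-voom and 159 (without bird 1 of Day 0) to 354. With all 20 birds 320 were higher and 381 lower. Transcripts without overlap numbered 77 to 174 higher and 86 to 204 lower with 1 bird fewer, which fewer birds raise by construction. The interaction gave 84 calls with DESeq2 and 0 to 2 with 1 of 20 birds left out.

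The sign of a component is arbitrary and was set by its correlation with the reported one. In 7 cases (all tested transcripts, and component 3 in others) that correlation was under 0.8, so they are other axes and were not set beside it; their exact permutation p by day was 0.0667 to 0.590. Component 1 differed between days by -1.12 with 2000 transcripts, against 3.31, and by -7.88 to 13.5 with 1 bird left out. Component 2 then differed by -17.6 to -5.58 and detected transcripts by -35.0 to 65.0. The cause was not tested. Among abundant transcripts, tree_swallow000202t1_sg0.0 had a log2 fold change of -0.11 with limma-voom and -0.11 to 0.14 with 1 bird left out, tree_swallow002145t1_sg0.0 -0.28 to 0.0015 and tree_swallow001487t3_sg0.1 -0.15 to 0.0023. For most transcripts under 10 CPM the interval did not leave out a 2-fold change, so such changes there may have gone undetected. Above 10 CPM, differences of over 2-fold did not pass in edgeR either. Examples are tree_swallow001694t1_sg0.0 (log2 fold change 1.11, edgeR adjusted p = 0.822) and tree_swallow009929t1_sg0.0 (-1.93, edgeR adjusted p = 0.355). The intervals are not adjusted for the number of transcripts, so 2-fold changes may have gone undetected there too.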
